A study of Saccharomyces cerevisiae with 6 samples.

Results

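The GAS genes of budding yeast, GAS1 to GAS5, encode the family of β-1,3-glucanosyltransferases that lengthen and rearrange the main glucan of the cell wall. The genes were chosen by family name, with their response to loss of NPL3 already known, and each was represented by the probe set whose gene symbol names it (the brightest where a gene had several, although each GAS gene had 1 probe set). They are 5 of the 5449 genes measured. The differences between the genotypes that follow for these 5 genes are therefore a description and carry no test.

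Transcript levels were measured on 6 Affymetrix yeast arrays, 3 of cells lacking NPL3 and 3 of wild type cells, each labelled as a biological replicate. The deletion strain, WNPL3B1-2B, carries npl3::KanMX, and the wild type strain is W303-1A bar1∆. Cells of both genotypes were haploid, MATa, lacked BAR1 (bar1ΔHphMX) and carried the nutritional markers his3-11,15, ura3-1, ade2-1, trp1-1 and the leu2 allele with mutations 3 and 112, and the canavanine resistance allele can1-100. The cultures were in mid-log growth in rich medium with glucose (YPD in one label, YPAD in another). NPL3 encodes an abundant RNA-binding protein that joins mRNA as it is made and leaves the nucleus with it. The labels name 1 strain for each genotype, so a difference between the genotypes cannot be told apart from any other difference between these 2 strains.

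The yeast cell wall is built from glucan, chitin and mannoproteins. Glucan synthase extrudes linear β-1,3-glucan at the plasma membrane, and GAS enzymes, held at the outer face of the membrane or in the wall by a GPI anchor, cut a chain and join it to another. GAS1 provides the main activity in growing cells, where GAS3 and GAS5 are also expressed. GAS2 and GAS4 are known as sporulation genes: in diploid cells undergoing meiosis their products act together in building the glucan layers of the spore wall. Haploid cells in rich medium do not sporulate.

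Values are deposited log2 values, so a difference of 1 is a 2-fold change, and they are given as the mean ± SD of 3 arrays. Each probe set has its own response to its transcript, so levels were compared between genotypes for 1 gene and not between genes. NPL3, the deleted gene, read 3.80, 4.04 and 4.04 on the deletion arrays, against 10.75, 11.37 and 11.33 on the wild type arrays, a fall by 7.19 (SE 0.16, limma adjusted p = 1.2e-07). The probe set of this absent transcript averaged 3.96 in the deletion, while that of BAR1, deleted in both strains, averaged 1.06 in the deletion and 1.10 in wild type, so the reading of an absent transcript depends on the probe set. The background level used here was 2.13, the 95th percentile of 1746 probe sets whose symbols match no gene in the budding yeast reference table.

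Among the genes of growing cells, GAS1 (YMR307W, chromosome XIII, coding length 1680 nucleotides) was slightly lower in the deletion. Its values were 12.12, 12.04 and 12.09 on the deletion arrays, against 12.34, 12.24 and 12.31 on the wild type arrays. All deletion arrays lay below all wild type arrays, and neither group spread by more than 0.10. The means were 12.08 ± 0.04 in the deletion and 12.30 ± 0.05 in wild type, a difference of -0.22, or a level 1.16-fold lower. Among all genes, 47.5% had a smaller absolute difference.

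GAS3 (YMR215W, chromosome XIII, 1575 nucleotides) differed more. It read 9.54, 9.62 and 9.74 in the deletion, against 10.28, 10.25 and 10.17 in wild type. The 2 groups were again apart, with the highest deletion array well below the lowest wild type array. The means of 9.64 ± 0.10 in the deletion and 10.23 ± 0.06 in wild type differed by -0.60, a level 1.51-fold lower, and 83.5% of genes had a smaller absolute difference.

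GAS5 (YOL030W, chromosome XV, 1455 nucleotides) was at 11.33, 11.23 and 11.25 in the deletion and at 11.22, 11.26 and 11.26 in wild type. The lowest array was a wild type one and the highest a deletion one, so the groups overlap. The difference of the means, 11.27 ± 0.05 in the deletion and 11.25 ± 0.02 in wild type, was 0.02, smaller than the SD between deletion arrays. Only 5.60% of genes had a smaller absolute difference.

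Of the sporulation genes, GAS2 (YLR343W, chromosome XII, 1668 nucleotides) had by far the largest difference of the family. Its values were 10.88, 10.79 and 10.93 on the deletion arrays, against 7.67, 7.88 and 7.94 on the wild type arrays. The gap between the groups was many times the spread within either of them. GAS2 averaged 10.86 ± 0.07 in the deletion and 7.83 ± 0.15 in wild type, a difference of 3.04 or 8.20-fold. Set against the wild type mean, the deletion arrays were higher by 3.05, 2.96 and 3.10, so no single array carried the difference. It ranked 6 among the 5449 genes when these were ordered by difference. The wild type reading was also well above the background level of 2.13.

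GAS4 (YOL132W, chromosome XV, 1416 nucleotides), the other sporulation gene, read 4.16, 3.94 and 4.25 in the deletion, against 3.39, 3.56 and 3.96 in wild type. The highest wild type array lay above the lowest deletion array, so the groups overlap. The means were 4.12 ± 0.16 in the deletion and 3.63 ± 0.29 in wild type, a difference of 0.48. Both means lie above the background level of 2.13, but no array shows what the GAS4 probe set reads without its transcript. Its pooled SD within groups, 0.24, was larger than that of 96.9% of genes, and the difference was 0.31 when the arrays were quantile normalized again.

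**Figure D1:**
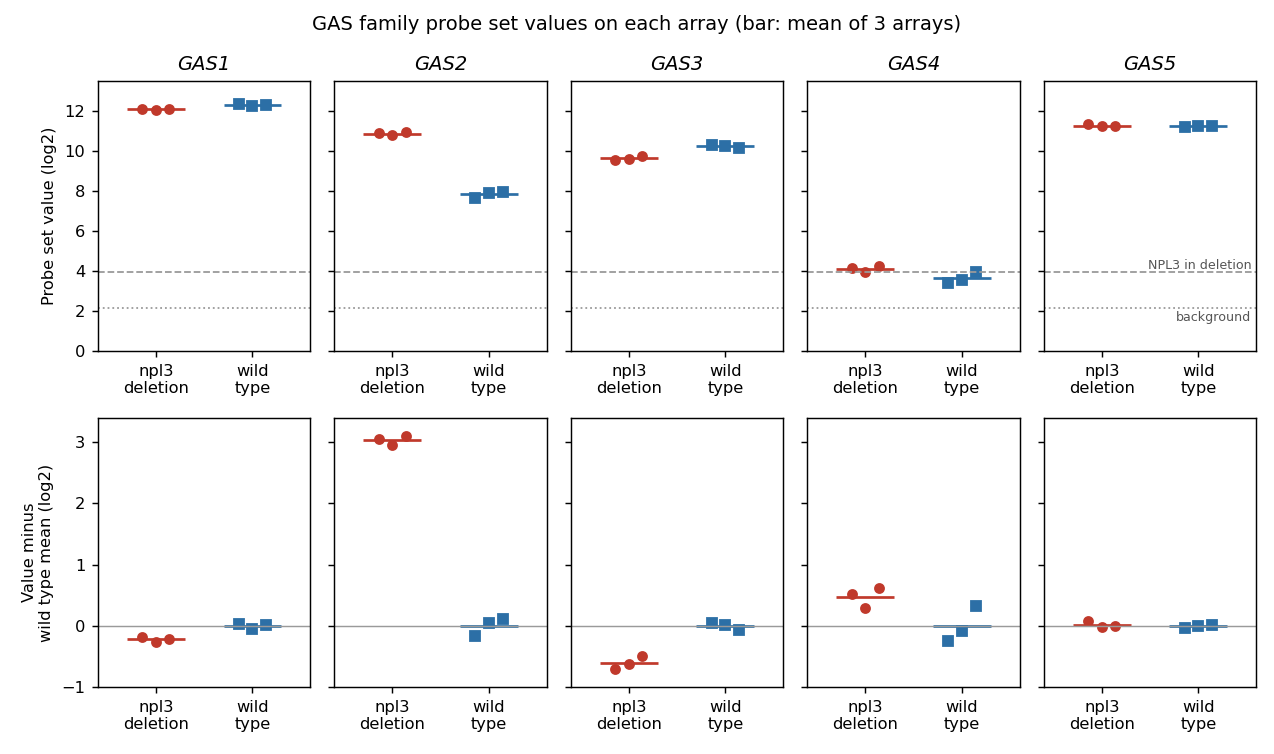
Each column shows 1 GAS gene, with npl3 deletion arrays (circles) left of wild type arrays (squares) and the mean of 3 arrays as a bar; the top row gives the log2 value and the bottom row the value minus the gene's wild type mean. GAS2 stands about 3 log2 units higher on all deletion arrays, GAS3 and GAS1 lie lower, GAS5 lies near 0 and GAS4 overlaps between the genotypes; the dotted line marks the background level of 2.13 and the dashed line the NPL3 probe set in the deletion, 3.96.

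The family thus had no common direction. The groups did not overlap and the deletion was higher for 1 of 5 genes, where this held for 36.2% of all genes, and the deletion was lower without overlap for 2 of 5, where this held for 32.5% of all genes. Both counts come from the contrast on which the genes were chosen and are given as a description. The median difference of the 5 was 0.02, beside 0.01 over all genes. The 3 genes of growing cells differed by at most 0.60 in size, and the pair of sporulation genes differed by 3.04 and 0.48. Control probe sets differed too (deletion minus wild type): labelling controls by 0.71, hybridization controls by -0.63 and the 5′ minus 3′ signal by 0.37. The part of these control differences in those of the GAS genes was not tested. The pooled SD within groups was 0.04 for GAS1, 0.11 for GAS2, 0.08 for GAS3 and 0.04 for GAS5, against a median of 0.07 over all genes.

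**Figure D2:**
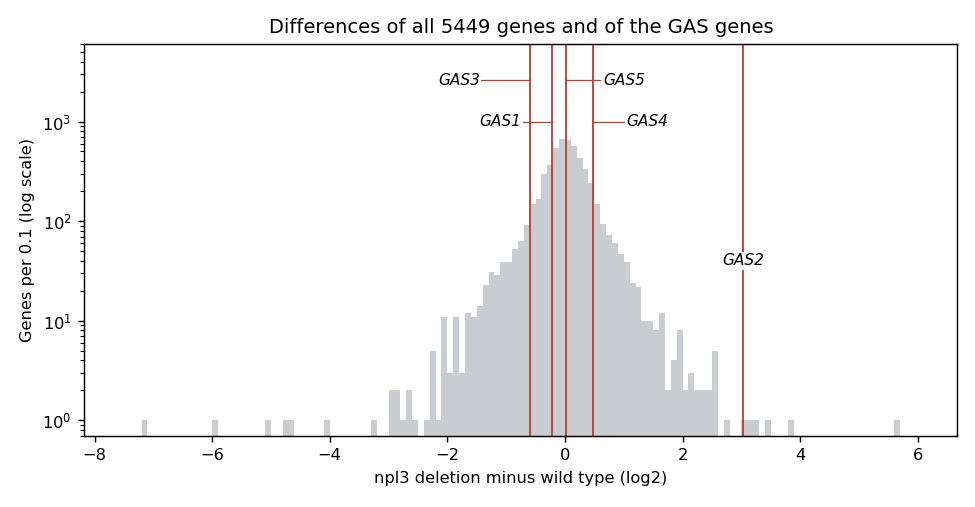
The histogram counts genes (log axis) by npl3 deletion minus wild type difference in bins of 0.1 log2 units, and vertical lines mark the GAS genes. GAS1, GAS3, GAS4 and GAS5 lie within the bulk of the 5449 genes, and GAS2 at 3.04 lies in the sparse right tail.

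A second set of 4 probe sets on the array carries the lower-case symbols gas1, gas2, gas4 and gas5. They matched no gene of the budding yeast table and read 1.42 to 2.10 over all 6 arrays, below the background level of 2.13. They are among the 1746 probe sets from which that level was taken, so lying below it does not show that they detect nothing. They were not counted as members.

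The array pattern of GAS2 had few close matches. Each gene's 6 values were set against its own wild type mean, and genes were ranked by the root mean square distance to GAS2. The nearest was FLX1, which encodes a mitochondrial FAD carrier, at a distance of 0.09 and with a difference of 3.10 between the means. YAL064W followed at 0.24, YJL047C-A at 0.29, YHR214C-D at 0.34 and YKL183C-A at 0.34, with differences of 2.78, 3.24, 2.60 and 3.42 (deletion minus wild type). FLX1 was the only gene within 0.2 of GAS2. By the same measure 2271 genes lay within 0.2 of GAS1, 557 of GAS3, 275 of GAS4 and 2915 of GAS5. The nearest genes were YML6 and SSN3 for GAS1, CTR1 and FCY2 for GAS3, NBL1 and YOL038C-A for GAS4, and YDR131C and VPS4 for GAS5. The distance rests on the same 6 arrays and mainly on the difference between genotypes, so it describes likeness of size.

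Genes beside the GAS genes on the chromosomes were tested, since they were chosen by position. The test was limma over all 5449 genes, and a gene was called where its Benjamini-Hochberg adjusted p was below 0.05, which held for 32.9% of all genes in the higher direction and 28.9% in the lower direction. Of 20 neighbouring positions, 2 on each side of each gene, 19 were measured. Of these, 8 were called higher in the deletion, 4 were called lower and 7 were not called, with a median difference of 0.05. Without wild type array 3 the number called lower was 2. Nothing particular to the neighbours is read from these counts.

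The GAS2 neighbourhood held 1 large change. YLR342W-A, a short open reading frame of 174 nucleotides directly before GAS2 on the same strand, read 9.70, 9.55 and 9.77 in the deletion, against 7.90, 7.88 and 7.88 in wild type. The groups were far apart, and it rose by 1.78 (SE 0.06, adjusted p = 7.9e-07), or 3.44-fold, less than GAS2 itself. The next gene on that side and strand is FKS1, which encodes the main catalytic subunit of glucan synthase. FKS1 read 12.09, 12.05 and 12.02 in the deletion, against 12.06, 12.12 and 12.15 in wild type. Its groups overlapped and it was not called (difference -0.06, adjusted p = 0.29). On the other side the tRNA gene TRR4 was not measured, and RPL26A, a ribosomal protein gene, differed by 0.13 (adjusted p = 0.070), but was called without wild type array 1, with a trended and robust variance and with array weights (adjusted p = 0.019 to 0.039). The probe sets do not show where a transcript starts or ends.

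Other wall genes stand beside GAS1. FKS3, a glucan synthase homologue with a known part in spore wall assembly, stands directly before GAS1 on the same strand and read 4.19, 4.02 and 3.64 in the deletion, against 4.63, 5.06 and 4.85 in wild type. It fell by 0.90 (SE 0.15, adjusted p = 0.0016), but was dim. Its deletion mean was 3.95, above the background level of 2.13. The probe set of the absent NPL3 transcript read 3.96, but the reading of an absent transcript depends on the probe set. SCW10, a soluble wall protein related to glucanases, rose by 0.66 (SE 0.05, adjusted p = 2.7e-05). On the other side PSE1, an importin gene, differed by -0.03 (adjusted p = 0.57). NIP1, a translation initiation factor gene, rose by 0.16 (adjusted p = 0.027), a call that ended without deletion array 2 or 3 or wild type array 1 or 3 (adjusted p = 0.062 to 0.092) and with a replicate block (0.057).

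Next to GAS3, SCJ1, an endoplasmic reticulum chaperone gene on the same strand, fell by 0.50 (SE 0.06, adjusted p = 2.1e-04), close to the -0.60 of GAS3. CEF1, a splicing factor gene, fell by 0.19 (adjusted p = 0.033), a call that ended without deletion array 1 or 2 or wild type array 1 or 3 (adjusted p = 0.068 to 0.11) and after renewed quantile normalization (0.094). SKY1, which encodes the kinase that phosphorylates Npl3, differed by -0.12 and GUA1, of guanine nucleotide synthesis, by 0.05, and neither was called. Around GAS4, MED7 of the Mediator complex, HRT1, a ubiquitin ligase subunit gene, and ALR1, a magnesium transporter gene, rose by 0.49, 0.46 and 0.40, while YOL131W was below background on average in both genotypes. Around GAS5, YAP7, a transcription factor gene, and YOL029C rose by 0.74 and 0.29. SIL1, of the endoplasmic reticulum, differed by -0.15 and was not called. OPI10 fell by 0.27 (adjusted p = 0.035), a call that ended without array 3 of either genotype (adjusted p = 0.093 without that of the deletion, 0.11 without that of wild type) and with a replicate block (0.080).

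**Figure D3:**
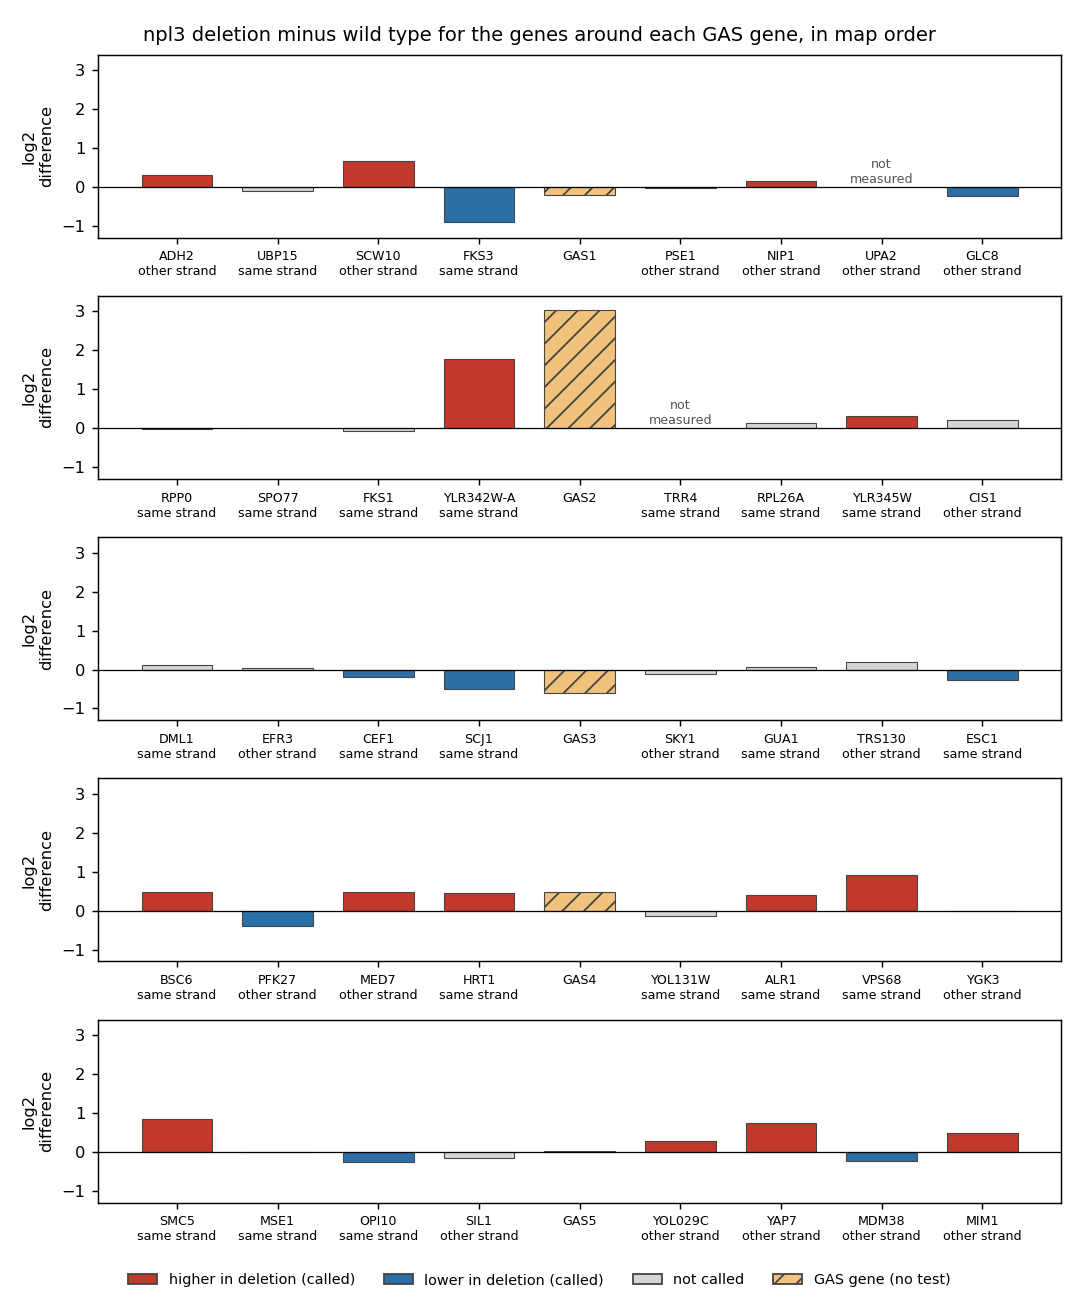
Each row shows 1 GAS gene with the 4 annotated genes on either side in map order, and bars give the npl3 deletion minus wild type difference (log2). YLR342W-A, directly before GAS2, is the tallest neighbour at 1.78, while FKS1 beyond it stands at -0.06.

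The enzymes that make the substrate of the GAS proteins were examined as a list of 7 glucan synthase genes and regulators, of which 3 rose, 2 fell and 2 were not called (median difference -0.06). Over all genes 32.9% were called higher and 28.9% lower, and the counts of each list below stand beside these shares. GSC2, also known as FKS2, encodes the alternative catalytic subunit that growing cells use under stress and that serves in sporulation. It read 11.58, 11.42 and 11.47 in the deletion, against 9.95, 10.15 and 10.20 in wild type. Every deletion array was above every wild type array, and GSC2 rose by 1.39 (SE 0.08, adjusted p = 5.8e-06), or 2.62-fold. RHO1, the GTPase that activates glucan synthase, rose by 0.43 (SE 0.05, adjusted p = 2.5e-04). The 3 catalytic genes thus differed in their calls, with GSC2 higher, FKS3 lower and FKS1 not called. The lower call among them rests on FKS3 alone. FKS3 was dim, averaging 3.95 in the deletion and 4.85 in wild type, though above the background level of 2.13. The probe set of the absent NPL3 transcript read 3.96, but such a reading depends on the probe set. FKS3 was not tested where the dimmest genes were left out.

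The 18 other genes of glucan remodelling, mostly glucanases and transglycosylases, had 6 that rose and 9 that fell (median -0.18). NCA3 and SUN4, of the SUN family of wall proteins, fell by 2.39 (SE 0.23, adjusted p = 7.3e-05) and by 1.25 (SE 0.05, adjusted p = 1.0e-06). CRH1 and UTR2, which join chitin to glucan in growing cells, rose by 0.56 (adjusted p = 3.2e-04) and 0.26 (adjusted p = 0.0020). CRR1, their sporulation relative, differed by -0.20 and was not called (adjusted p = 0.11), although it was called without wild type array 3 (adjusted p = 0.034) and with a replicate block (0.021). SPR1, the glucanase gene specific to sporulation, read 5.83, 5.55 and 5.61 in the deletion, against 4.72, 4.72 and 4.73 in wild type. It rose by 0.94 (SE 0.07, adjusted p = 2.8e-05), with the groups apart.

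For β-1,6-glucan, to which many GPI proteins are linked in the wall, 5 of 11 genes rose, 4 fell and 2 were not called (median -0.06). KRE5 and BIG1, both of the endoplasmic reticulum and needed for this polymer, moved in opposite directions: KRE5 fell by 1.18 (SE 0.06, adjusted p = 2.4e-06) and BIG1 rose by 1.01 (SE 0.05, adjusted p = 4.3e-06). KRE6, a glucan synthase-like protein gene, rose by 0.21 (adjusted p = 0.013). Among 16 chitin genes, 4 rose, 6 fell and 6 were not called, and without wild type array 2 the number called higher was 2. CTS1, the chitinase that separates daughter cells, fell by 1.13. CHS3, the catalytic subunit for most wall chitin, differed by -0.04 (adjusted p = 0.53).

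The GAS proteins need a GPI anchor, and there were 27 anchor synthesis genes: 7 rose, 7 fell and the other 13 were not called (median -0.01). The largest changes were those of ARV1, a lipid transport gene tied to anchor assembly, which rose by 0.78, and LAS21, which modifies the anchor's glycan and fell by 0.78. Of 18 wall proteins 5 rose, 5 fell and 8 were not called. TIP1, a mannoprotein gene, fell by 2.00 (SE 0.09, adjusted p = 1.7e-06) and YPS3, a GPI-anchored protease gene, fell by 1.09. In the cell wall integrity pathway, which responds to wall damage through the kinase Slt2 and the transcription factor Rlm1, 5 of 21 genes rose, 8 fell and 8 were not called (median -0.07). SLT2 differed by -0.12 (adjusted p = 0.072), but was called without wild type array 1, after renewed quantile normalization, with a trended and robust variance and with array weights (adjusted p = 0.034 to 0.046). RLM1 rose by 0.25 (adjusted p = 0.042), a call that ended without array 1 or 3 of either genotype (adjusted p = 0.070 to 0.12), with a replicate block (0.093) and with array weights (0.052). SDP1, a phosphatase of Slt2, fell by 1.04. None of these lists had a median beyond 0.20 in size.

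**Figure D4:**
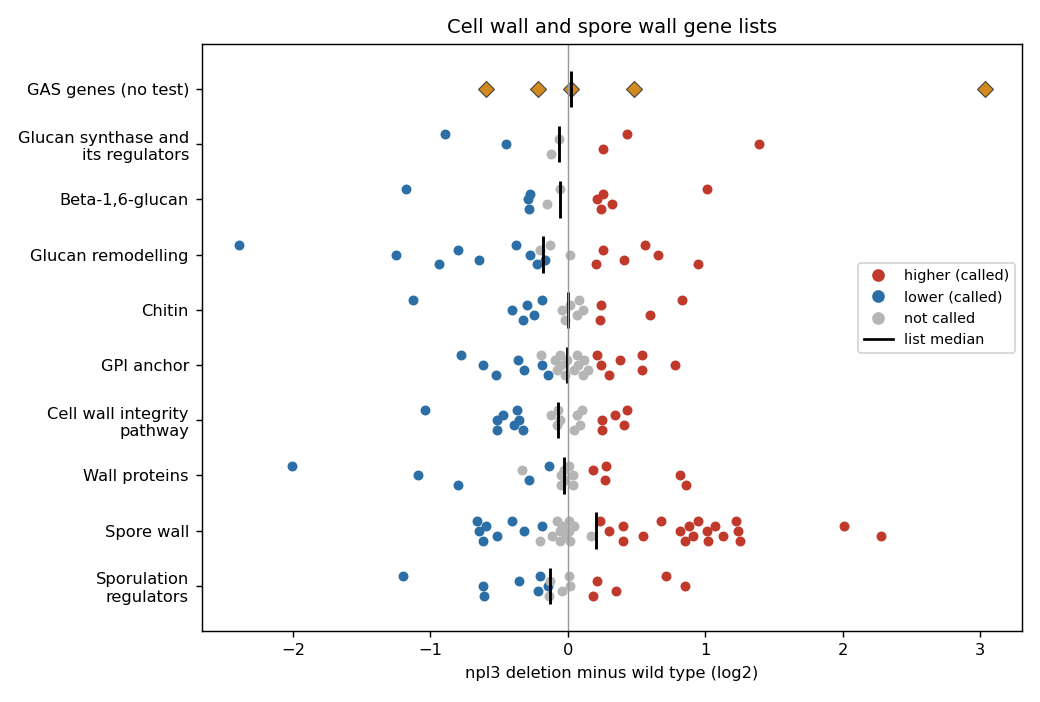
Points give the npl3 deletion minus wild type difference (log2) of each gene in 9 wall and sporulation lists, with the GAS genes on top (diamonds, not tested) and list medians as black bars. GAS2 lies to the right of every point of these lists, and the spore wall list is the one with a median of 0.20.

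GAS2 and GAS4 belong to the spore wall, so 40 other genes of the spore wall and the membrane it forms on were examined. In the deletion 20 rose (50.0%), 8 fell (20.0%) and the remaining 12 were not called, where 32.9% of all genes rose and 28.9% fell. The median was 0.20, beside 0.01 over all genes, with array medians of 0.27, 0.24 and 0.12 on deletion arrays 1, 2 and 3. Summed over the list, the log2 values came to 219.5 to 225.9 in the deletion and 205.3 to 208.6 in wild type. Most of these genes were dim: 6 remained when the 20% of genes with the lowest means over all 6 arrays were left out, and of these 3 rose and 1 fell. Called rises of 1 or more were seen in 9 genes and called falls of that size in 0. The share of all genes with called changes of that size is not given here, so these counts have no baseline. The control probe sets differed between the genotypes as well: the 5′ minus 3′ signal averaged -0.78 ± 0.11 in the deletion and -1.15 ± 0.01 in wild type, and labelling controls averaged 4.80 ± 0.20 in the deletion and 4.10 ± 0.12 in wild type. Hybridization controls were lower, at 8.67 ± 0.60 in the deletion and 9.31 ± 0.08 in wild type, with deletion array 1 apart at 7.99. The part of these differences in the counts was not tested. In bulk RNA a change in a few cells cannot be told apart from a change in all of them.

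SPO19, a GPI-anchored prospore protein gene, read 6.53, 6.37 and 6.65 in the deletion, against 3.99, 4.27 and 4.45 in wild type. The groups were well apart, and SPO19 rose by 2.28 (SE 0.12, adjusted p = 4.3e-06). SSP2, needed for spore wall formation, read 7.74, 7.58 and 7.76 in the deletion, against 5.50, 5.77 and 5.78 in wild type, and rose by 2.01 (SE 0.09, adjusted p = 2.0e-06). DON1, a protein of the growing prospore membrane, rose by 1.25 and SPO73, which acts in prospore membrane growth, rose by 1.23. The chitin deacetylase genes CDA1 and CDA2, whose products make the chitosan layer, fell by 0.41 (adjusted p = 0.011) and by 0.19 (adjusted p = 0.020). CDA2 was dim in both genotypes, and its call ended without deletion array 2 or 3 or wild type array 2 or 3 (adjusted p = 0.051 to 0.070), with a replicate block (0.052) and with a trended and robust variance (0.27). Called genes of this list thus lay in both directions.

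**Figure D5:**
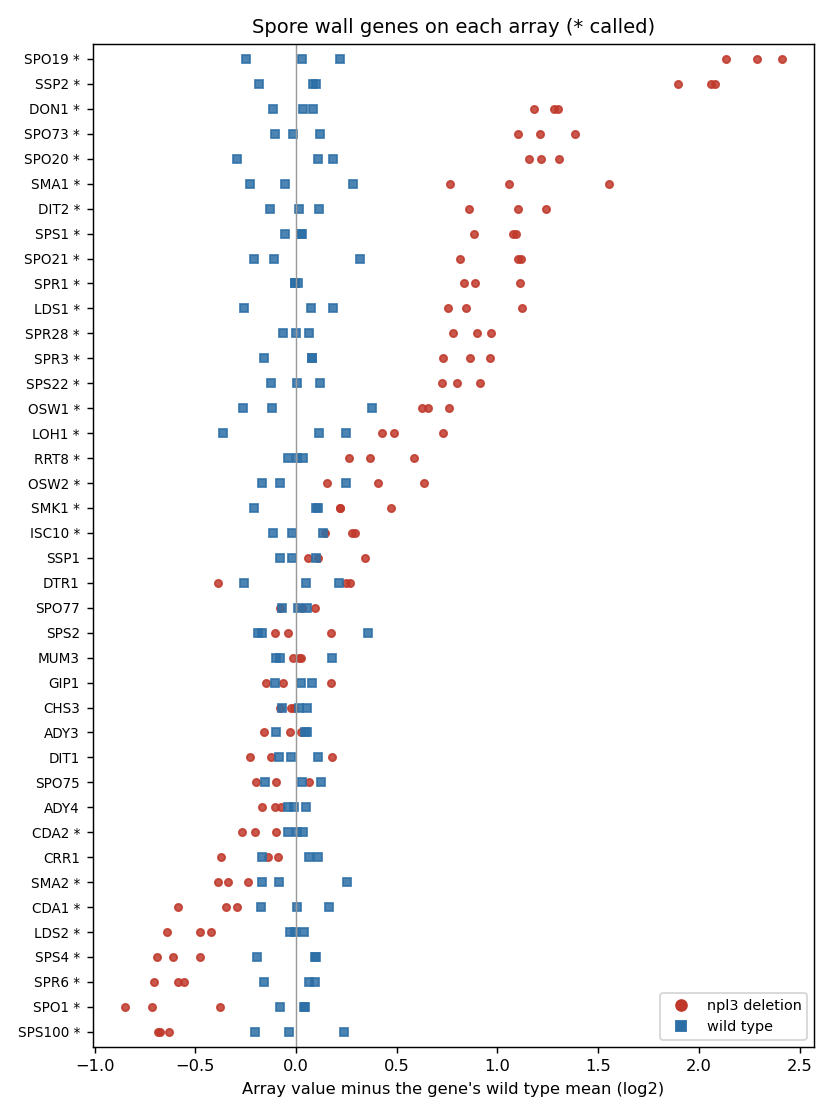
Rows are the 40 spore wall genes other than GAS2 and GAS4 ordered by difference; circles (npl3 deletion) and squares (wild type) give each array's value minus the gene's wild type mean (log2), and an asterisk marks called genes. The deletion arrays run from 2.28 on average for SPO19 to negative values at the bottom, with 12 genes in the middle not called.

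The regulators of the sporulation program were mixed. Among 17 genes 5 rose, 7 fell and the other 5 were not called, where 32.9% of all genes rose and 28.9% fell. Their median was -0.13, with summed log2 values of 127.3 to 127.7 in the deletion and 128.2 to 129.3 in wild type. Without deletion array 3 the number called lower was 4. NDT80, the activator of middle sporulation genes, read 6.27, 6.02 and 5.95 in the deletion, against 5.30, 5.26 and 5.12 in wild type, and rose by 0.85 (SE 0.09, adjusted p = 1.4e-04). SUM1, which represses middle sporulation genes in growing cells, read 8.93, 8.82 and 8.85 in the deletion, against 9.28, 9.19 and 9.19 in wild type, and fell by 0.35 (SE 0.05, adjusted p = 6.8e-04). Both genes had groups that were fully apart. IME1, the inducer of meiosis, fell by 0.61 (SE 0.09, adjusted p = 5.5e-04), and RIM4, an RNA-binding regulator of meiosis, fell by 1.20 (SE 0.18). UME6, a DNA-binding regulator of early meiotic genes, differed by -0.13 (adjusted p = 0.24), and was called without wild type array 1 (adjusted p = 0.011).

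Markers of other cell states were set beside these values. Of 8 defining sporulation markers, 4 were called higher (NDT80, SPS1, DIT2 and SMK1), 2 lower (IME1 and SPS4) and 2 were not called (DIT1 and SSP1). DIT1 and DIT2, neighbouring genes of the dityrosine layer of the spore wall, differed by -0.06 and 1.07. Beside these marker counts, 32.9% of all genes were called higher and 28.9% lower. Of 7 genes specific to a cells, 5 fell, with MFA1 lower by 0.88 and MFA2 lower by 0.62, and STE2 and BAR1 were not called. BAR1, deleted in both strains, was below background and had no transcript that could differ. Of 4 genes specific to α cells, SAG1 rose by 0.48 (adjusted p = 0.0029), the pheromone gene MF(ALPHA)1 fell by 0.89 (adjusted p = 5.7e-04), MF(ALPHA)2 fell by 0.21 and STE3 was not called. Both MF(ALPHA) genes were dim, though above the background level of 2.13. The probe set of the absent NPL3 transcript read 3.96, but such a reading depends on the probe set. MF(ALPHA)1 averaged 3.13 in the deletion and 4.02 in wild type, and MF(ALPHA)2 averaged 3.51 in the deletion and 3.72 in wild type. Summed log2 values of the a-cell genes came to 56.7 to 57.8 in the deletion and 59.8 to 60.01 in wild type, and those of the α-cell genes to 18.6 to 19.1 in the deletion and 19.2 to 19.9 in wild type. The part of these markers in the GAS2 difference was not tested.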

How the data were processed

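Total RNA (1 µg) was labelled as biotinylated cRNA and hybridised to 6 Affymetrix yeast arrays, per the labels' protocols. The deposited values are log2 expression values for 10928 probe sets. The authors used RMA and limma, per the submitters' processing notes; which versions and options they ran is not given in the sources used here. RMA makes the arrays' distributions of probe intensities equal, which hides any shift common to most genes. The distributions of the probe set values were not fully equal, with array medians of 4.81 to 4.98. Values were not normalized again.

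Of the probe sets, 7244 had 1 symbol in the platform annotation, 1 had several and 3683 had none. 5498 matched the RefSeq yeast table (assembly R64), which gave names, coding lengths, chromosomes and gene order, and 1746 did not. Of 5449 genes, 47 had several probe sets and the brightest was used. Differences were fitted in R 4.3.3 by lmFit and eBayes of limma 3.58.1 (genotype as the only term, two-sided, Benjamini-Hochberg over all genes, threshold 0.05), which called 3369 genes. The fit was tested on simulated data with independent noise and few changed genes. These data have many called genes, so that test does not show their rate of false calls. With 3 arrays a group, their number limits the precision. Tables and figures used Python 3.11.15, NumPy 2.4.6, pandas 2.3.3 and matplotlib 3.10.9.

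The members, lists and tests were chosen with earlier results of these data known. Named genes are the GAS genes, their neighbours, key wall and sporulation genes fixed by name, and per list the called members differing by 1 or more (up to 4), else the 2 largest called. The other sporulation markers named were fixed as cell markers. RHO1, SPR1, CRR1, CHS3, CDA1, CDA2, SPS2 and SPS22 each stand in 2 lists. Alternatives were each array left out, a replicate block, other scalings, averaged probe sets, array weights, a trended and robust variance, dim genes left out and a threshold of 0.01.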

Additional observations from a re-analysis of the deposited data

How the results depend on the processing

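Of 14 alternatives, those on the test alone (variance model and threshold) leave a difference as it is. Under the others, the differences of the GAS genes stayed within 1 pooled SD of their main values in 59 of 59 cases. Most of these cases could not have come out otherwise. Leaving out a single array cannot move a difference by 1 pooled SD. Averaged probe sets, dim genes left out and a replicate block do not move it at all. Only renewed quantile normalization, median centring and array weights could have moved a difference further. With single arrays left out, GAS2 differed by 2.95 to 3.09, GAS1 by -0.24 to -0.20, GAS3 by -0.65 to -0.55, GAS4 by 0.36 to 0.64 and GAS5 by -0.0076 to 0.04. GAS4 was among the dimmest genes and had no value where the lowest 20% by mean level were left out. Same-numbered arrays of the genotypes did not deviate together (correlations of -0.14, -0.07 and -0.19), so the replicate numbers were not treated as pairs. With a replicate block, which cannot change a difference in this balanced design (GAS2 3.04), 3035 genes were called, against 3369 without it. Of 140 counts of called list genes and neighbours, 135 stayed within 1.5 times the main count. At an adjusted p of 0.01, 5 chitin genes and 6 sporulation regulators were called, against 10 and 12 at 0.05. Over all genes 2520 were called at 0.01, against 3369 at 0.05. With the lowest 20% left out, 2759 genes were called over all genes, and fewer list genes could be tested. Called were 8 of 16 cell wall integrity genes (13 of 21 in the main test) and 4 of 6 spore wall genes (28 of 40). Of the sporulation regulators, 6 of 10 were called (12 of 17), and the spore wall median was 0.10. Of 55 named genes, 7 lost their call and 4 gained one under at least 1 alternative, and 0 of them changed sign with a call.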

Other observations

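Further from the GAS genes, at 3 and 4 places on each side, 19 of 20 positions were measured, and 6 genes were called higher in the deletion, 4 lower and 9 were not called (limma over all genes). The shares over all genes were 32.9% higher and 28.9% lower. These positions were added after the nearer ones had been seen. Near GAS4, VPS68 rose by 0.92 (SE 0.05, adjusted p = 6.8e-06), and near GAS5, SMC5 rose by 0.86 (SE 0.08, adjusted p = 8.4e-05). Near GAS2, the spore wall gene SPO77 read 3.36 ± 0.09 in the deletion and 3.35 ± 0.06 in wild type, a difference of 0.01 with the groups overlapping, and YLR345W rose by 0.33 (adjusted p = 0.014).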
